A study of Mus musculus with 12 samples.

Results

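Hippocampus was compared with cortex in control mouse embryos at E18.5, the last day or so before birth, across all genes. The libraries were chosen by their labels: 6 of the 12 samples of the series are controls, and since runs 1 and 2 of replicate 1 share a table in each region, these give 4 libraries, 2 from hippocampus and 2 from cortex. The series as a whole also holds embryos that lack functional Srrm4 (nSR100), a neuronal splicing regulator, and those libraries were not used here. Both control groups, cortex and hippocampus, carry the label wild type and received no treatment that the labels name. Per the labels' protocols, the line was founded with EUCOMM stem cells that held a conditional nSR100lox allele and were combined with morulae of the ICR outbred stock, its carriers were bred on C57Bl/6N, and the mutants arose by crossing with B6.C-Tg(CMV-cre)1Cgn/J mice, in which a cytomegalovirus promoter drives Cre broadly. The labels do not say whether the controls carry the conditional allele or Cre, whether embryos were pooled, or whether cortex and hippocampus came from the same animals. A p-value here therefore weighs the difference between regions only against the spread among libraries of a region, part of which may be technical. With 2 residual degrees of freedom, that spread is estimated partly from other genes.

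The hippocampus arises from the medial edge of the embryonic pallium, next to the cortical hem, a signalling centre that secretes Wnt and BMP ligands. The neocortex arises farther from the hem and builds its layers from deep to superficial, while the dentate gyrus of the hippocampus goes on making granule neurons after birth. Both regions share excitatory neurons made by pallial progenitors, inhibitory interneurons that migrate in from the ventral forebrain, and the same kinds of glia and vessels.

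Total counts were 132754979 and 68213778 in cortex and 121366651 and 68649479 in hippocampus (replicates 1 and 2), and mitochondrial genes took 3.20% to 3.39% of them. Libraries of a region were alike: of the genes with a mean of at least 1 RPKM (reads per kilobase of gene, scaled to library size), 26 of 12404 differed by more than 2-fold between the cortex libraries and 55 of 12696 between the hippocampus libraries. The summed RPKM of 4 Y-linked genes was 10.3 and 45.5 in cortex and 11.4 and 47.02 in hippocampus, so that replicate 2 was the higher in both regions. Hippocampus replicate 2 stood apart in some choroid plexus genes. Ttr, the thyroid hormone carrier made by choroid plexus, lay at 13.4 and 152 RPKM in hippocampus and at 0.49 and 4.26 RPKM in cortex. For Ttr, replicate 2 was thus the higher in both regions. Both cortex libraries carried genes of the striatum and ventral forebrain, described below with the markers of other neighbouring tissues. In bulk tissue, fewer cells of a type and less RNA per cell cannot be told apart, and this holds for every value below. Srrm4 itself lay at 25.2 and 24.2 RPKM in cortex and at 26.03 and 27.9 RPKM in hippocampus, and its log2 fold change of 0.05 (SE 0.06) did not pass the test described next (adjusted p = 0.57, edgeR).

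The main question was which genes differ between the regions. Of 15824 genes tested with edgeR's quasi-likelihood test, 5985 (37.8%) passed an adjusted p of 0.05, 3276 (20.7%) higher in hippocampus and 2709 (17.1%) higher in cortex. A difference of at least 2-fold was reached by 1913 of them (12.1% of the genes tested), 1108 higher in hippocampus (7.0%) and 805 higher in cortex (5.09%). At least 8-fold differences numbered 110 in hippocampus and 110 in cortex. Most passing genes, 2168 higher in hippocampus and 1904 higher in cortex, differed by less than 2-fold, and the median size over all passing genes was 0.70 on the log2 scale. Hippocampus genes made up 54.7% of the passing genes in edgeR, 50.7% in DESeq2, 59.6% in edgeR with upper-quartile scaling and 64.8% in limma on log2(RPKM + 1). What moves this share was not tested. In each of the 5985 passing genes both libraries of the higher region lay above both libraries of the lower one, and this holds for every passing gene below; 69.1% of all tested genes showed no overlap in either direction. Highly expressed genes were largely common to both regions: 93 of the 100 most abundant genes were shared.

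**Figure D1:**
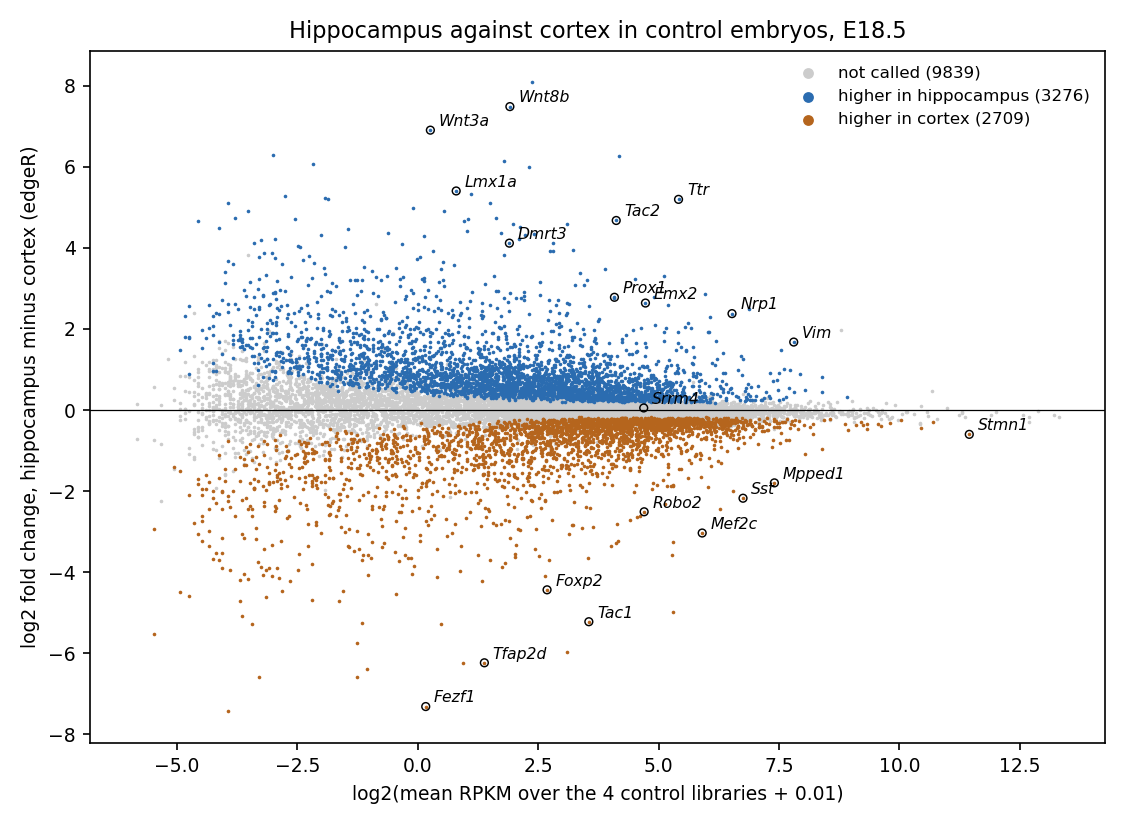
Log2 fold change of hippocampus minus cortex (vertical axis, edgeR) against the log2 mean RPKM over the 4 control libraries plus 0.01 (horizontal axis), 1 point per tested gene. Blue points passed higher in hippocampus (3276), brown points passed higher in cortex (2709) and grey points did not pass; circles mark genes named in the text, with Wnt8b at 7.48 and Fezf1 at -7.31.

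Among the genes with at least 1 RPKM in a region, the steepest differences toward hippocampus included Wnt ligands and a hem transcription factor. Where a pair of values is set against another, here and below, the cortex libraries come first and the hippocampus libraries after, each with replicate 1 before replicate 2. Wnt8b, a ligand of the hem and medial pallium, lay at 0.03 and 0.06 RPKM in cortex and 8.34 and 6.6 RPKM in hippocampus (log2 fold change 7.48, SE 0.29, edgeR adjusted p = 5.2e-05). Wnt3a, the hem ligand required for hippocampal growth, had 6 and 4 counts in cortex and 901 and 368 in hippocampus, or 2.74 and 1.98 RPKM (log2 fold change 6.90, SE 0.33, edgeR adjusted p = 8.6e-05). Lmx1a, a LIM homeodomain factor of the hem and choroid plexus, rose from 0.08 and 0.07 to 3.62 and 3.15 RPKM (log2 fold change 5.40, SE 0.18, edgeR adjusted p = 3.9e-05). Hippocampus replicate 1 lay above hippocampus replicate 2 for each of these 3 genes. The cortex values rested on 12 and 14 counts for Wnt8b and 33 and 15 counts for Lmx1a. Without cortex replicate 1 the log2 fold change of Wnt8b was 6.87. The tachykinin Tac2, a neuropeptide precursor, reached 32.2 and 34.8 RPKM in hippocampus against 1.06 and 1.51 RPKM in cortex (log2 fold change 4.67, SE 0.16, edgeR adjusted p = 3.9e-05). Pdlim3, a PDZ and LIM domain protein, lay at 0.16 and 0.12 against 10.6 and 9.02 RPKM. Cyp1b1, a cytochrome P450 of retinoid and steroid metabolism, lay at 0.1 and 0.1 against 4.5 and 3.87 RPKM. Cnmd, chondromodulin, lay at 0.15 and 0.15 against 5.61 and 5.32 RPKM. Sphk1, a sphingosine kinase, lay at 0.05 and 0.06 against 1.86 and 1.75 RPKM. The log2 fold changes of these 4 genes ran from 4.97 to 5.99 (edgeR adjusted p at most 7.4e-05). The predicted genes Gm10720, Gm10800 and Gm10801 were also among the largest but were uneven, with 0 counts in both cortex libraries against 51 and 18 for Gm10720 (at least 10.2-fold higher, against a floor of 3 counts per library), 0.4 and 0.52 against 54.3 and 16.97 RPKM for Gm10800, and 1 and 2 against 224 and 31 counts for Gm10801. Their fold changes moved with the library left out, for Gm10800 from 5.14 without hippocampus replicate 1 to 6.88 without hippocampus replicate 2 on the log2 scale, and for Gm10801 from 4.69 to 7.03, the latter without cortex replicate 2. Reads of such genes may be split among similar copies, so their values are uncertain.

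Toward cortex, the steepest differences included genes of transcription factors and of membrane receptors. Fezf1, a zinc finger factor known from olfactory and diencephalic development, had 598 and 374 counts in cortex and 5 and 1 in hippocampus, and lay at 1.99 and 2.43 RPKM in cortex (log2 fold change -7.31, SE 0.30, edgeR adjusted p = 6.1e-05). Without hippocampus replicate 1, which held most of those few counts, the value was -8.37. Tfap2d, an AP-2 family transcription factor, lay at 5.08 and 5.18 RPKM in cortex and 0.07 and 0.07 RPKM in hippocampus (log2 fold change -6.23, SE 0.16, edgeR adjusted p = 3.3e-05). Foxp2, a forkhead factor of layer 6 neurons and also of striatum, lay at 12.04 and 12.4 against 0.45 and 0.77 RPKM (log2 fold change -4.43, SE 0.23, edgeR adjusted p = 0.0001). Mc4r, the melanocortin 4 receptor, lay at 4.74 and 4.78 against 0.26 and 0.28 RPKM (log2 fold change -4.22, SE 0.12, edgeR adjusted p = 3.3e-05). Il1rapl2, an interleukin receptor accessory protein family member, lay at 1.5 and 1.25 against 0.07 and 0.05 RPKM. Few genes came close to being detected in only 1 region. A level of at least 1 RPKM in both libraries of a region with at most 0.1 RPKM in both of the other was found for 12 genes of hippocampus, Wnt8b, Wnt3a, Lmx1a, Cyp1b1 and Sphk1 among them, and for 4 genes of cortex, Fezf1, Tfap2d, Il1rapl2 and the small heat shock protein gene Hspb3. The hippocampus genes also included the uncertain Gm10720 and several IDs without a symbol, all at 0 RPKM in both cortex libraries.

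Ranked by the difference in RPKM rather than by fold, other genes came to the front. Vim, the intermediate filament of radial glia, lay at 103 and 102 RPKM in cortex and 352 and 337 RPKM in hippocampus (log2 fold change 1.68, SE 0.08, edgeR adjusted p = 8.1e-05). Crym, a thyroid hormone binding protein, lay at 35.2 and 32.7 against 209 and 195 RPKM (log2 fold change 2.50, SE 0.09, edgeR adjusted p = 3.9e-05). Both genes, unlike those of the hem, were abundant in both regions. Islr2, an axon guidance related immunoglobulin and leucine-rich repeat protein, lay at 243 and 230.3 against 447 and 432 RPKM. Igfbpl1, a protein of the insulin-like growth factor binding family, lay at 122 and 126 against 265 and 261 RPKM. Their log2 fold changes were 0.82 and 1.02. Toward cortex, the largest difference in RPKM was that of Stmn1. This gene, which encodes the tubulin-binding stathmin, lay at 3081 and 3525 RPKM in cortex and 2184 and 2396 RPKM in hippocampus (log2 fold change -0.60, SE 0.12, edgeR adjusted p = 0.0099), and it did not pass without cortex replicate 2 (log2 fold change -0.53, adjusted p = 0.053, edgeR). Next came Nnat (neuronatin), at 1592 and 1556 against 1126 and 1296 RPKM, and the actin-binding thymosin gene Tmsb10, at 1850 and 1743 against 1527 and 1543 RPKM, with log2 fold changes of -0.45 and -0.30. Nnat did not pass without cortex replicate 1 or hippocampus replicate 1 (adjusted p = 0.093 and 0.054, edgeR), nor did Tmsb10 on removing any single library (adjusted p from 0.054 to 0.24). The growth cone genes Gpm6a and Basp1 had log2 fold changes of -0.95 and -0.46. Mpped1, a metallophosphoesterase of cortical neurons, lay at 261 and 259 against 74.1 and 83.4 RPKM (log2 fold change -1.80, SE 0.08, edgeR adjusted p = 7.3e-05). Enc1, an actin-binding protein of cortical neurons, lay at 360.3 and 343 against 179.8 and 171 RPKM (log2 fold change -1.08, SE 0.10, edgeR adjusted p = 0.00068).

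Gene lists were then read against the whole table, in which 20.7% of genes passed higher in hippocampus, 17.1% passed higher in cortex and the median log2 fold change was 0.01. The lists were drawn up for this tissue with earlier results of these data known, so their counts are descriptions.

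Signals of the cortical hem and dorsal midline came first. Of 21 tested members 16 were higher in hippocampus and 3 in cortex, with a median of 1.39. Besides Wnt8b and Wnt3a, the ligand Wnt2b lay at 1.05 and 1.08 against 6.35 and 4.71 RPKM. Wnt5a lay at 2.17 and 2.29 against 11.2 and 10.5 RPKM (log2 fold change 2.22, SE 0.08, edgeR adjusted p = 4.4e-05). Rspo1, an R-spondin that amplifies Wnt signals, lay at 0.43 and 0.45 RPKM in cortex and 6.46 and 6.55 RPKM in hippocampus (log2 fold change 3.81, SE 0.12, edgeR adjusted p = 3.6e-05), while Rspo2 and Rspo3 differed less (log2 fold changes 1.45 and 1.20). Msx1, a homeodomain target of BMP signals, lay at 0.14 and 0.15 against 4.13 and 3.81 RPKM (log2 fold change 4.72, SE 0.16, edgeR adjusted p = 3.9e-05). The BMP ligands were at low levels and differed in both directions. Bmp7 lay at 1.96 and 1.78 against 4.69 and 4.47 RPKM (log2 fold change 1.22, SE 0.11, edgeR adjusted p = 0.00057), Bmp4 and Bmp6 were also higher in hippocampus (log2 fold changes 1.23 and 1.15), and Bmp2 was higher in cortex at 0.71 and 0.62 against 0.33 and 0.3 RPKM (log2 fold change -1.14, SE 0.17, edgeR adjusted p = 0.0036). The other members higher in cortex were the Wnt ligands Wnt7b, at 34.9 and 31.2 against 18.48 and 19.1 RPKM (log2 fold change -0.89, SE 0.08, edgeR adjusted p = 0.00062), and Wnt7a (log2 fold change -0.33, SE 0.09, edgeR adjusted p = 0.028), which are made widely in the pallium. Wnt7a did not pass without cortex replicate 1 (adjusted p = 0.14, edgeR) or without hippocampus replicate 2 (adjusted p = 0.074), nor Bmp4 without cortex replicate 2 (adjusted p = 0.058).

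Receptors, effectors and targets of Wnt signalling were higher in hippocampus in 19 of 24 tested genes and higher in cortex in 2, with a median of 1.18. The Wnt receptor Fzd10 lay at 0.16 and 0.11 RPKM in cortex and 4.22 and 3.26 RPKM in hippocampus (log2 fold change 4.66, SE 0.23, edgeR adjusted p = 9.5e-05). Fzd1 lay at 8.71 and 8.63 against 30.4 and 27.8 RPKM (log2 fold change 1.68, SE 0.08, edgeR adjusted p = 8.7e-05). Lef1, the nuclear partner of beta-catenin that the dentate gyrus requires, lay at 1.06 and 1.15 against 8.75 and 7.57 RPKM (log2 fold change 2.82, SE 0.12, edgeR adjusted p = 6.4e-05). Among feedback targets, Axin2 lay at 6.01 and 6.25 against 16.2 and 17.1 RPKM (log2 fold change 1.37, SE 0.06, edgeR adjusted p = 8e-05). Sp5, a zinc finger factor induced by Wnt, lay at 0.16 and 0.19 against 4.23 and 3.54 RPKM (log2 fold change 4.42, SE 0.19, edgeR adjusted p = 6.8e-05). Tnfrsf19, a receptor of the tumour necrosis factor family, lay at 16.1 and 14.99 against 56.9 and 49.4 RPKM (log2 fold change 1.70, SE 0.11, edgeR adjusted p = 0.00018). Receptors, the nuclear partner and feedback targets thus lay on the same side, at levels from low (Sp5) to moderate (Tnfrsf19). Ctnnb1, beta-catenin itself, was among the largest RPKM differences at 277 and 276 against 416 and 381 RPKM (log2 fold change 0.46, SE 0.10, edgeR adjusted p = 0.016), and did not pass without cortex replicate 2 (adjusted p = 0.064). The members higher in cortex were the secreted Wnt binders Sfrp1, at 24.4 and 24.1 against 12.97 and 12.6 RPKM (log2 fold change -0.99, SE 0.07, edgeR adjusted p = 0.00021), and Sfrp2 (log2 fold change -1.08, SE 0.09, edgeR adjusted p = 0.0005). Of 14 BMP response genes 8 were higher in hippocampus and 3 in cortex. The inhibitor of differentiation Id3 lay at 13.8 and 14 against 57.02 and 53.2 RPKM (log2 fold change 1.92, SE 0.08, edgeR adjusted p = 6.4e-05) and Id1 was also higher in hippocampus (log2 fold change 0.90), while Id2, at 191 and 218 against 124 and 134 RPKM, and the BMP antagonist Nog were higher in cortex (log2 fold changes -0.74 and -0.97).

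Since these Wnt genes were higher in hippocampus together, their promoters were searched for the core of the LEF1 and TCF binding motif, ATCAAAG, on both strands, in RefSeq windows from 250 bases before to 50 bases after the start. Of the 17 Wnt response genes with a window 2 held it, Sp5 and Tnfrsf19, against 3.05% of tested genes with a window. Of 16 hem genes with a window 2 held TAATTA, a core shared by many homeodomain factors, Wnt8b and Msx2, against 3.67%. The 250 bases upstream of the start are shown for 3 of these genes, chosen after their values were seen because they hold a match, with the match in capitals as read on the gene's strand (GRCm38.p6). They lie at chr2:70474673-70474922 on the plus strand for Sp5, chr14:61037988-61038237 on the minus strand for Tnfrsf19 and chr19:44493222-44493471 on the plus strand for Wnt8b.
Sp5: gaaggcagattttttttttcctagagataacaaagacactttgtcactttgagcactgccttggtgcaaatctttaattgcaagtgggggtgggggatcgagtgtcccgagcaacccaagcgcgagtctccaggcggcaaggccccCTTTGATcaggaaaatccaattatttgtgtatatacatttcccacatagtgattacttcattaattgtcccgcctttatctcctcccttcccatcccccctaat
Tnfrsf19: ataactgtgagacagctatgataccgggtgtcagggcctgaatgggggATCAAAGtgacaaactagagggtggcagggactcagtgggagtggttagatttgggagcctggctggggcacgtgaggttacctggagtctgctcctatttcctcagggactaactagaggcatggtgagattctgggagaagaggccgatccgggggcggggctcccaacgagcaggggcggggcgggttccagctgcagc
Wnt8b: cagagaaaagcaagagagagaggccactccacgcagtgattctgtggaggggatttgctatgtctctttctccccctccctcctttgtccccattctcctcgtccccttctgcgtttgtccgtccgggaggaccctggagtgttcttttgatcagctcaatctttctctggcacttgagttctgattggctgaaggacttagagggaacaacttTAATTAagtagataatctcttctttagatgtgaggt
The match begins 104 bases before the start in Sp5, where it reads CTTTGAT, the reverse complement, 202 bases before it in Tnfrsf19 and 36 bases before it in Wnt8b. Over all genes the windows covered 76.1% of the tested genes. No test over gene sets was made, so the shares are a description only. TAATTA was held by 5.8% of genes at least 2-fold higher in hippocampus and 5.52% of genes at least 2-fold higher in cortex. The shares for ATCAAAG were 3.26% and 2.07%. AGGTCA, the core bound by nuclear receptors, was in 14.8% and 16.2% against 15.3% of all, and TTGGCA, the core bound by NFI factors, in 16.7% and 15.5% against 14%. In windows of the whole RefSeq table the shares were 3.73% for ATCAAAG, 5.29% for TAATTA, 16.3% for AGGTCA and 14.1% for TTGGCA.

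Transcription factors of the medial pallium and hippocampus passed higher in hippocampus in 16 of 25 tested members and higher in cortex in 5. Dmrt3, a doublesex-related factor graded toward the medial pallium, lay at 0.36 and 0.43 RPKM in cortex and 7.19 and 6.94 RPKM in hippocampus (log2 fold change 4.11, SE 0.13, edgeR adjusted p = 3.6e-05). Its relative Dmrta2 lay at 2.89 and 2.67 against 12.3 and 10.2 RPKM (log2 fold change 1.95, SE 0.13, edgeR adjusted p = 0.00024). Lhx9, a LIM homeodomain factor, lay at 1.74 and 1.72 against 20.4 and 17.4 RPKM (log2 fold change 3.38, SE 0.13, edgeR adjusted p = 4.7e-05). Emx2, which the hippocampus needs to reach its size and whose reads cannot be told from those of its antisense gene without strand, lay at 6.61 and 7.47 against 45.1 and 46.7 RPKM (log2 fold change 2.64, SE 0.07, edgeR adjusted p = 3.3e-05). Its paralogue Emx1 differed less, at 18.8 and 18.3 against 44.9 and 41.4 RPKM (log2 fold change 1.15, SE 0.09, edgeR adjusted p = 0.00036). Of this pair of paralogues, Emx2 was the one with the steeper difference and Emx1 had the higher RPKM in cortex. Zbtb20, the zinc finger factor that specifies hippocampal pyramidal neurons, lay at 10.5 and 9.54 against 68.1 and 58.8 RPKM (log2 fold change 2.59, SE 0.13, edgeR adjusted p = 9.5e-05). Lhx2, which restrains the hem and marks pallial progenitors, lay at 56.9 and 58.5 against 159 and 147 RPKM (log2 fold change 1.34, SE 0.08, edgeR adjusted p = 0.00014). The NFI factors, which drive glial and hippocampal maturation, were higher in hippocampus in all 3 members of the list. Nfia lay at 12.4 and 11.8 against 36.9 and 32.4 RPKM. Nfib lay at 68.4 and 60.8 against 148 and 123 RPKM. Nfix lay at 149 and 126 against 313 and 258 RPKM. The log2 fold changes of Nfia, Nfib and Nfix were 1.45, 1.0 and 0.98. The members higher in cortex included Mef2c, an activity-regulated factor of cortical neurons, at 106 and 106 against 13.9 and 13.3 RPKM (log2 fold change -3.03, SE 0.08, edgeR adjusted p = 3.3e-05). Meis2, a homeodomain factor also abundant in striatum, lay at 143 and 150.1 against 34.8 and 43.1 RPKM (log2 fold change -1.99, SE 0.10, edgeR adjusted p = 9e-05). Bcl11b was also higher in cortex, with a log2 fold change of -1.08.

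Genes that pattern the cortical areas split between the regions, 6 of 20 higher in hippocampus and 10 higher in cortex. Besides Emx2, the fibroblast growth factor receptor Fgfr3 lay at 8.38 and 8.66 against 17.7 and 19.4 RPKM (log2 fold change 1.05, SE 0.07, edgeR adjusted p = 0.00018). The ETS factor Etv4 lay at 4.81 and 4.48 against 12.5 and 12.4 RPKM (log2 fold change 1.35, SE 0.09, edgeR adjusted p = 0.0002). Pax6, a factor of pallial progenitors, differed less (log2 fold change 0.53, SE 0.07, edgeR adjusted p = 0.0027). Nr2f1 (COUP-TFI), the factor of caudal and lateral pallium, lay at 58.9 and 62.2 against 71.8 and 74.5 RPKM (log2 fold change 0.20, SE 0.06, edgeR adjusted p = 0.038), a small difference whose call was lost on removing any single library (adjusted p from 0.11 to 0.17). The members higher in cortex included Cdh6, Sst, Lmo3 and Tbr1, of which Lmo3, a LIM-only factor, lay at 59.2 and 59.8 against 15.2 and 18.9 RPKM (log2 fold change -1.88, SE 0.10, edgeR adjusted p = 9.7e-05).

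Markers of the adult hippocampal fields did not share a direction at this age. Passing genes of the dentate gyrus and of CA3 and CA2 were split between the regions, while CA1 genes were mostly higher in cortex. Of 18 dentate gyrus genes 8 were higher in hippocampus and 5 in cortex (median 0.24). Prox1, the factor that fixes granule cell identity, lay at 4.58 and 3.65 RPKM in cortex and 33.8 and 25.7 RPKM in hippocampus (log2 fold change 2.78, SE 0.19, edgeR adjusted p = 0.00024). The chemokine receptor Cxcr4, which guides granule cell precursors, lay at 19.2 and 19.97 against 86.6 and 79.4 RPKM (log2 fold change 2.01, SE 0.08, edgeR adjusted p = 5.2e-05). The calcium buffer Calb1, a marker of mature granule cells, was higher in cortex at 10.1 and 9.91 against 3.89 and 3.22 RPKM (log2 fold change -1.56, SE 0.12, edgeR adjusted p = 0.00036). C1ql3, a secreted synaptic organizer, was also higher in cortex at 5.97 and 5.26 against 1.87 and 1.55 RPKM (log2 fold change -1.78, SE 0.15, edgeR adjusted p = 0.00047), as was Plk5 (log2 fold change -1.96, SE 0.20, edgeR adjusted p = 0.00087).

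Those CA3 and CA2 genes that passed were divided in the same way. Of 18 CA3 and CA2 genes 6 were higher in hippocampus and 4 in cortex. Grik4, the kainate receptor subunit of CA3 neurons, lay at 2.81 and 2.6 against 9.52 and 8.81 RPKM (log2 fold change 1.69, SE 0.10, edgeR adjusted p = 0.00014). Tgfb2, a growth factor, lay at 4.64 and 4.6 against 23 and 21.6 RPKM (log2 fold change 2.20, SE 0.08, edgeR adjusted p = 3.9e-05). Nectin3, an adhesion molecule, lay at 15.7 and 15.9 against 28.3 and 27.3 RPKM (log2 fold change 0.74, SE 0.07, edgeR adjusted p = 0.00062). The CA2 gene Rgs14 was higher in cortex at 0.91 and 0.89 against 0.45 and 0.33 RPKM (log2 fold change -1.24, SE 0.20, edgeR adjusted p = 0.0052). Of 11 CA1 genes 1 was higher in hippocampus, Fibcd1, at 2.26 and 1.86 against 5.05 and 4.58 RPKM (log2 fold change 1.15, SE 0.13, edgeR adjusted p = 0.0015). The 9 CA1 genes higher in cortex included Mpped1 and Etv1, which are also known from neocortical neurons. Among them, the palmitoyltransferase gene Zdhhc2 lay at 23.1 and 22.2 against 7.1 and 8.2 RPKM (log2 fold change -1.64, SE 0.08, edgeR adjusted p = 9.5e-05).

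Genes of the neocortical layers were mostly higher in cortex. Of 17 upper-layer genes 12 were higher in cortex and 5 in hippocampus (median -0.87). Rorb, the nuclear receptor of layer 4, lay at 4.6 and 4.14 against 0.88 and 0.85 RPKM (log2 fold change -2.41, SE 0.10, edgeR adjusted p = 6.4e-05). The homeodomain factor Cux2 lay at 23.8 and 22.3 against 9.38 and 9.82 RPKM (log2 fold change -1.34, SE 0.07, edgeR adjusted p = 9.7e-05). The POU factor Pou3f3 lay at 88.4 and 91.1 against 51.7 and 51.8 RPKM (log2 fold change -0.87, SE 0.06, edgeR adjusted p = 0.00025). Lpl, lipoprotein lipase, stood out among the members higher in hippocampus at 11 and 11.1 against 51.02 and 48.8 RPKM (log2 fold change 2.10, SE 0.07, edgeR adjusted p = 3.8e-05). Lhx2 and Nectin3, whose values are given above, were also higher in hippocampus. So was Bhlhe22, at 85.3 and 89.98 against 150.4 and 136 RPKM (log2 fold change 0.64, SE 0.09, edgeR adjusted p = 0.0027).

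Deep-layer genes were higher in cortex in 18 of 26 members and in hippocampus in 5 (median -1.10). The corticothalamic genes were among the steepest. Syt6, a synaptotagmin of layer 6, lay at 16.6 and 14.5 against 1.87 and 2.07 RPKM (log2 fold change -3.06, SE 0.12, edgeR adjusted p = 4.7e-05). The neurotensin receptor Ntsr1 lay at 17.04 and 15.2 against 2.4 and 2.32 RPKM (log2 fold change -2.84, SE 0.10, edgeR adjusted p = 3.9e-05). Tbr1, the T-box factor of layer 6, lay at 71.9 and 71.5 against 30.9 and 30.4 RPKM (log2 fold change -1.30, SE 0.06, edgeR adjusted p = 8.9e-05) so that it was also present in hippocampus. Bcl11b (CTIP2), the factor of subcerebral neurons that is also made in striatum and CA1, lay at 49.8 and 47.7 against 23.5 and 25.1 RPKM. Fezf2, which specifies subcerebral projection neurons in layer 5, went the other way, at 28.8 and 30.6 RPKM in cortex and 41.7 and 55.4 RPKM in hippocampus (log2 fold change 0.63, SE 0.12, edgeR adjusted p = 0.0084). Zfpm2 did likewise, at 7.82 and 7.99 against 22.3 and 20.6 RPKM (log2 fold change 1.37, SE 0.08, edgeR adjusted p = 0.00013). Crym, given above among the largest RPKM differences, had the steepest difference toward hippocampus in the list (log2 fold change 2.50). Subplate genes were higher in cortex in 9 of 16 and in hippocampus in 3. The nuclear receptor Nr4a2 lay at 26.1 and 23.3 against 6.63 and 13.6 RPKM (log2 fold change -1.38, SE 0.30, edgeR adjusted p = 0.014), with hippocampus replicate 2 above replicate 1. The lysophosphatidic acid receptor Lpar1 was higher in hippocampus at 1.34 and 1.45 against 5.01 and 3.66 RPKM (log2 fold change 1.58, SE 0.18, edgeR adjusted p = 0.0014).

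**Figure D2:**
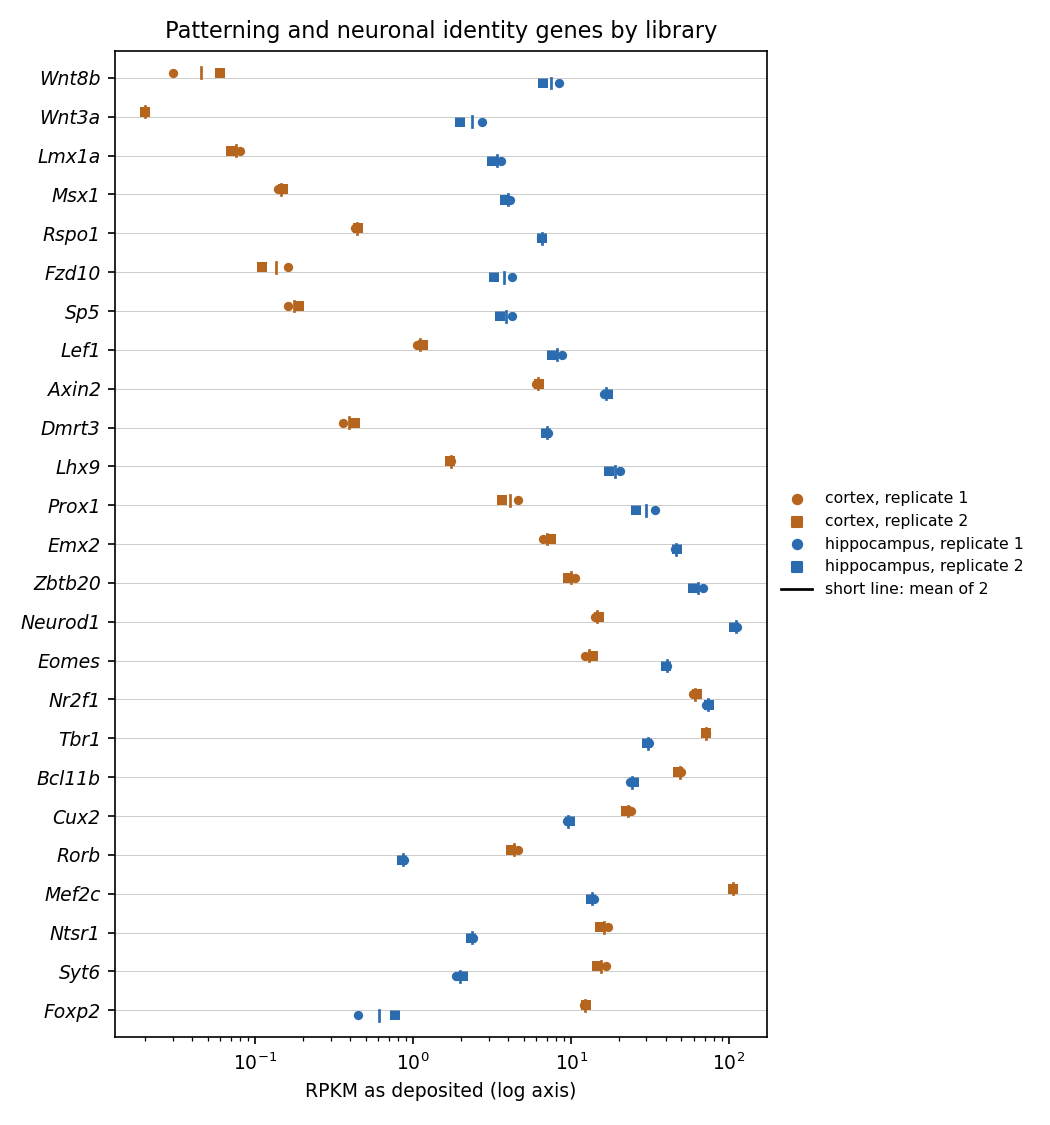
RPKM as deposited (log axis) of patterning and neuronal identity genes in each control library; circles are replicate 1, squares replicate 2, brown cortex, blue hippocampus, and the short line is the mean of 2. From Wnt8b at the top to Eomes the hippocampus libraries lie above the cortex libraries, the regions lie close together for Nr2f1, and from Tbr1 to Foxp2 the cortex libraries lie above.

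Progenitor genes and proliferation genes were higher in hippocampus. Of 28 cell cycle genes 27 were higher in hippocampus and 0 in cortex, with a median of 0.74. The replication licensing gene Mcm2 lay at 9.01 and 9.95 against 19.5 and 18.51 RPKM (log2 fold change 0.93, SE 0.08, edgeR adjusted p = 0.00052). Mcm6 lay at 20.1 and 20.6 against 40.8 and 37.1 RPKM (log2 fold change 0.87, SE 0.08, edgeR adjusted p = 0.00066). The spindle checkpoint gene Bub1b lay at 5.91 and 6.21 against 11.6 and 11.4 RPKM (log2 fold change 0.85, SE 0.07, edgeR adjusted p = 0.00051). These differences were alike in size and each under 2-fold. Intermediate progenitor genes were higher in hippocampus in 14 of 18 members. Eomes (TBR2), the T-box factor that defines these cells, lay at 12.3 and 13.8 RPKM in cortex and 40.7 and 39.7 RPKM in hippocampus (log2 fold change 1.55, SE 0.07, edgeR adjusted p = 8e-05). The proneural factor Neurog2 lay at 10.2 and 11.3 against 34.6 and 36.1 RPKM (log2 fold change 1.65, SE 0.07, edgeR adjusted p = 6.4e-05). Neurod1, the factor of newborn granule neurons, showed a steeper difference at 14.1 and 15.04 against 113 and 108 RPKM (log2 fold change 2.85, SE 0.07, edgeR adjusted p = 3.3e-05). Mfap4, a matrix protein, was the steepest of the list at 5.97 and 6.27 against 60.4 and 65.9 RPKM (log2 fold change 3.30, SE 0.07, edgeR adjusted p = 3.3e-05). The Notch ligand Dll3 was the 1 member higher in cortex (log2 fold change -0.42, SE 0.11, edgeR adjusted p = 0.026), and did not pass without cortex replicate 1, cortex replicate 2 or hippocampus replicate 2 (adjusted p = 0.075, 0.097 and 0.12).

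Radial glia genes were higher in hippocampus in 18 of 23 members and in cortex in 3. Hopx, a homeodomain-only protein of outer radial glia and of dentate stem cells, lay at 7.03 and 7.45 against 56.7 and 47.8 RPKM (log2 fold change 2.79, SE 0.12, edgeR adjusted p = 6.4e-05). Fabp7, the brain fatty acid binding protein and the most abundant member, lay at 717 and 819 against 847 and 969.7 RPKM and did not pass (log2 fold change 0.17, SE 0.09, adjusted p = 0.21, edgeR). The members higher in cortex were Ddah1, Ptprz1 and Ednrb (log2 fold changes -0.70, -0.55 and -0.53). Of 21 Notch pathway genes 12 were higher in hippocampus and 3 in cortex. The receptors Notch1 and Notch2 had log2 fold changes of 0.90 and 0.90. Their target Hes5 lay at 16.7 and 15.2 against 28.7 and 26.7 RPKM (log2 fold change 0.73, SE 0.10, edgeR adjusted p = 0.0026). Lfng, the glycosyltransferase that modifies Notch, lay at 6.94 and 7.41 against 18.7 and 18 RPKM (log2 fold change 1.28, SE 0.08, edgeR adjusted p = 0.00017).

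Cajal-Retzius cells, the early reelin-secreting neurons of the marginal zone, arise in large part from the hem. Their genes were higher in hippocampus in 9 of 18 members and in cortex in 4. Reln, the secreted glycoprotein, lay at 45.1 and 38.6 against 118 and 93.4 RPKM (log2 fold change 1.26, SE 0.16, edgeR adjusted p = 0.002). Trp73, the p53 relative that hem-derived cells make, lay at 3.47 and 3.53 against 16.9 and 15.6 RPKM (log2 fold change 2.14, SE 0.08, edgeR adjusted p = 5.2e-05). Nhlh2, a helix-loop-helix factor, lay at 3.95 and 4.42 against 29.98 and 29.5 RPKM (log2 fold change 2.76, SE 0.08, edgeR adjusted p = 3.3e-05). Lhx1 lay at 0.6 and 0.54 against 3.43 and 3.47 RPKM (log2 fold change 2.51, SE 0.11, edgeR adjusted p = 7.3e-05). Calb2 (calretinin), which interneurons also make, lay at 17.2 and 17.6 against 84.1 and 77.6 RPKM (log2 fold change 2.15, SE 0.08, edgeR adjusted p = 4.4e-05). Ebf2 was higher in cortex at 0.6 and 0.58 against 0.11 and 0.09 RPKM (log2 fold change -2.59, SE 0.19, edgeR adjusted p = 0.00034), whereas its relative Ebf3 was higher in hippocampus (log2 fold change 1.43, SE 0.10, edgeR adjusted p = 0.00023).

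Interneuron genes were higher in cortex in 19 of 28 members and in hippocampus in 5 (median -0.63). Sst, the somatostatin precursor, lay at 174 and 176 RPKM in cortex and 41.3 and 40.1 RPKM in hippocampus (log2 fold change -2.17, SE 0.07, edgeR adjusted p = 3.7e-05). The neuropeptide gene Npy lay at 125 and 136 against 24.99 and 25.1 RPKM (log2 fold change -2.45, SE 0.07, edgeR adjusted p = 3.6e-05). Both peptide genes were abundant in cortex and replicated closely. Gad2, the GABA-synthesizing enzyme, lay at 19.4 and 18.48 against 8.17 and 9.47 RPKM (log2 fold change -1.18, SE 0.08, edgeR adjusted p = 0.00024), and Dlx2 and Nkx2-1, factors of the ventral progenitors, had log2 fold changes of -1.10 and -2.04. The members higher in hippocampus were Calb2, Cck (cholecystokinin, which pyramidal neurons also make), Pnoc, Npas1 and Htr3a, the last of which did not pass without cortex replicate 1, cortex replicate 2 or hippocampus replicate 1 (adjusted p = 0.061, 0.11 and 0.15, edgeR). Cck lay at 30.6 and 28.5 against 85.4 and 69.3 RPKM (log2 fold change 1.32, SE 0.13, edgeR adjusted p = 0.00089). Pnoc, the nociceptin precursor, lay at 3.43 and 3.63 against 10.2 and 10.3 RPKM (log2 fold change 1.47, SE 0.09, edgeR adjusted p = 0.00015).

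Genes of the striatum and ventral forebrain were also higher in cortex. Of 22 tested markers 19 were higher in cortex and 0 in hippocampus (median -2.82), and their summed level was 225 and 230.0 RPKM in cortex against 58.9 and 61.7 RPKM in hippocampus. Both cortex libraries were alike in this sum, and none of the markers was at 0 counts in either region. The dopamine receptor Drd2 lay at 6.46 and 6.04 RPKM in cortex and 0.41 and 0.51 RPKM in hippocampus (log2 fold change -3.86, SE 0.13, edgeR adjusted p = 3.9e-05). Ppp1r1b (DARPP-32), the dopamine-regulated phosphatase inhibitor, lay at 30.6 and 30.4 against 4.4 and 4.72 RPKM (log2 fold change -2.81, SE 0.07, edgeR adjusted p = 3.3e-05). Tac1, the substance P precursor of striatonigral neurons, lay at 20.3 and 25.3 against 0.53 and 0.8 RPKM (log2 fold change -5.22, SE 0.20, edgeR adjusted p = 4.7e-05). Rxrg and Rarb, retinoid receptors of the striatum, had log2 fold changes of -3.64 and -3.61. Isl1, a LIM homeodomain factor of striatal and cholinergic neurons, lay at 10.2 and 12.9 RPKM in cortex and 0.21 and 1.36 RPKM in hippocampus (log2 fold change -4.09, SE 0.68, edgeR adjusted p = 0.0055), with hippocampus replicate 2 above replicate 1. Its value was -3.18 without hippocampus replicate 1 and -5.80 without hippocampus replicate 2. Whether striatal tissue in the cortex libraries adds to the cortical values of genes that striatum and ventral forebrain also make, such as Foxp2, Meis2, Bcl11b, Gad2, Npy and Penk, was not tested.

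Tissues that border the hippocampus had more of their markers in the hippocampus libraries. Of 20 choroid plexus genes 9 were higher in hippocampus and 3 in cortex (Col8a1, Prlr and Wdr86), and their summed level was 14.9 and 18.7 RPKM in cortex against 40.1 and 189.6 RPKM in hippocampus. The surplus of replicate 2 lay mostly in Ttr. Smaller parts lay in other members, among them the water channel Aqp1 (0.53 and 2.34 RPKM in hippocampus) and Clic6 (0.46 and 1.76 RPKM). Clic6 itself did not pass (log2 fold change 1.90, SE 0.60, adjusted p = 0.051, edgeR). By contrast, the claudin Cldn2 (0.62 and 0.68 RPKM) and Calml4 (2.45 and 3.19 RPKM) were closer in both hippocampus libraries. Without hippocampus replicate 2 the log2 fold change of Ttr was 2.58 (adjusted p = 7.6e-05, edgeR), and without cortex replicate 2 it was 7.28 (adjusted p = 0.0018). That of Aqp1 was 1.37 without hippocampus replicate 2 and 3.47 without hippocampus replicate 1. In the same order the log2 fold changes were 0.71 and 2.59 for Clic6 and -2.82 and -1.06 for Col8a1. Calml4 had 4.22 without cortex replicate 1 and 5.52 without cortex replicate 2. Meningeal genes were higher in hippocampus in 14 of 21 members and in cortex in 1, with summed levels of 32.4 and 37.4 RPKM in cortex and 79.3 and 80.8 RPKM in hippocampus. The matrix gene Dcn lay at 1.11 and 0.94 against 8.8 and 7.55 RPKM (log2 fold change 2.91, SE 0.16, edgeR adjusted p = 0.00012). Col3a1, a fibrillar collagen gene, lay at 0.46 and 0.6 against 5.32 and 4.19 RPKM (log2 fold change 3.12, SE 0.18, edgeR adjusted p = 0.00015). No tested marker of choroid plexus or meninges was at 0 counts in both libraries of a region. The thalamic and diencephalic list, by contrast, gave no common direction, with 2 of 16 tested genes higher in hippocampus and 6 in cortex, Fezf1 among them. Its summed level was 58.3 and 57.5 RPKM in cortex and 68.3 and 71 RPKM in hippocampus. The part of choroid plexus and meninges in the values of hem genes such as Lmx1a and Msx1, which those tissues also make, was not tested.

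**Figure D3:**
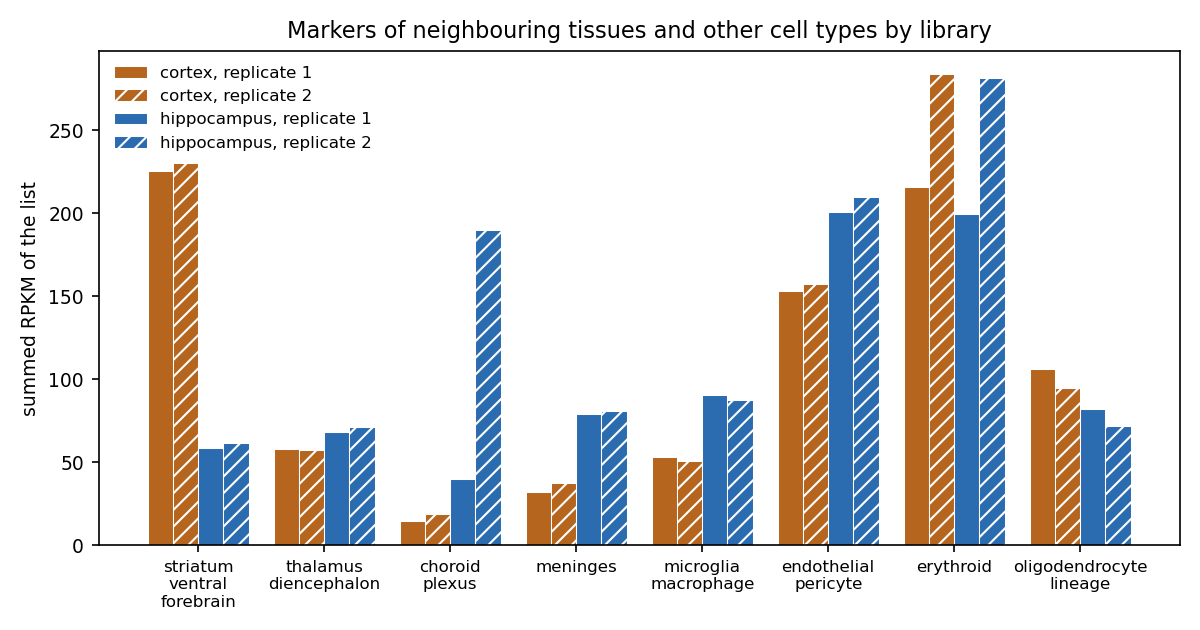
Summed RPKM (vertical axis, from 0) of the markers of neighbouring tissues and other cell types in each control library; brown bars are cortex, blue bars hippocampus, hatched bars replicate 2. Striatal markers sum to 225 and 230.0 in cortex, choroid plexus markers to 189.6 in hippocampus replicate 2, and erythroid markers lie higher in replicate 2 of both regions.

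Glial genes differed by lineage. Astrocyte and fimbria genes were higher in hippocampus in 15 of 23 members and in cortex in 3. Gfap, the astrocytic filament, lay at 4.4 and 3.98 RPKM in cortex and 44.4 and 38.7 RPKM in hippocampus (log2 fold change 3.24, SE 0.12, edgeR adjusted p = 4.4e-05). Gja1 (connexin 43) lay at 9.81 and 9.01 against 43.5 and 36.8 RPKM (log2 fold change 2.02, SE 0.12, edgeR adjusted p = 0.00015). Sparc, a matrix glycoprotein, lay at 62.8 and 60.04 against 157 and 149.5 RPKM (log2 fold change 1.25, SE 0.08, edgeR adjusted p = 0.00017). Aldh1l1, the folate enzyme used as a general astrocyte marker, went the other way at 14.9 and 13.9 against 8.57 and 8.49 RPKM (log2 fold change -0.83, SE 0.08, edgeR adjusted p = 0.00067), as did Sparcl1 (log2 fold change -0.70, SE 0.10, edgeR adjusted p = 0.0027). Ependymal and ciliary genes were higher in hippocampus in 13 of 14 tested members, the master regulator of motile cilia Foxj1 at 4.1 and 4.01 against 14.4 and 15.4 RPKM (log2 fold change 1.80, SE 0.08, edgeR adjusted p = 6.4e-05). Oligodendrocyte lineage genes were higher in cortex in 8 of 15 and in hippocampus in 1, C1ql1. The lineage factor Olig2 lay at 12.8 and 12 against 9.27 and 8.98 RPKM (log2 fold change -0.52, SE 0.09, edgeR adjusted p = 0.0054). The precursor receptor Pdgfra lay at 10.03 and 8.43 against 6.19 and 4.75 RPKM (log2 fold change -0.82, SE 0.16, edgeR adjusted p = 0.011).

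Microglia and macrophage genes were higher in hippocampus in 14 of 19 members and higher in cortex in 0 (median 0.85). The complement genes C1qa and C1qb had log2 fold changes of 0.79 (SE 0.11) and 0.85 (SE 0.13). Mrc1, the mannose receptor of border macrophages, showed a steeper difference at a low level, 0.32 and 0.25 against 1.01 and 0.75 RPKM (log2 fold change 1.56, SE 0.22, edgeR adjusted p = 0.0031). Endothelial and pericyte genes were higher in hippocampus in 10 of 22 and in cortex in 0, by smaller amounts, such as the VEGF receptor Kdr at 7.31 and 7.86 against 12.96 and 13.1 RPKM (log2 fold change 0.71, SE 0.06, edgeR adjusted p = 0.00061). Of 8 erythroid genes tested 1 passed, the erythroid factor Klf1 at 0.09 and 0.09 against 0.35 and 0.28 RPKM. The globin Hbb-bs, which has a near-identical copy, lay at 110.2 and 134 against 103 and 124 RPKM without passing (log2 fold change -0.18, SE 0.12, adjusted p = 0.28, edgeR).

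Axon guidance genes were split between the regions within families. Of 46 semaphorin, plexin, slit and netrin pathway genes 20 were higher in hippocampus and 18 in cortex (median 0.07). The semaphorin receptors Nrp1 and Nrp2 were among the largest differences. Nrp1 lay at 28.9 and 28.1 RPKM in cortex and 159.8 and 151 RPKM in hippocampus (log2 fold change 2.38, SE 0.09, edgeR adjusted p = 4.4e-05). Nrp2 lay at 27.2 and 25.5 against 110.1 and 102 RPKM (log2 fold change 1.94, SE 0.09, edgeR adjusted p = 8.6e-05). The replicates were close and the regions far apart for both receptors. Of their ligands, Sema3c was higher in hippocampus at 18.49 and 16.9 against 82.2 and 70.2 RPKM (log2 fold change 2.04, SE 0.12, edgeR adjusted p = 0.00014). Sema3a was higher in cortex at 12.8 and 11.7 against 3.55 and 2.87 RPKM (log2 fold change -2.0, SE 0.14, edgeR adjusted p = 0.00025). The slit receptor Robo2 lay at 46.04 and 41.7 against 8.56 and 7.63 RPKM (log2 fold change -2.51, SE 0.11, edgeR adjusted p = 6.3e-05). Its ligand Slit2 was higher in hippocampus at 4.35 and 4.14 against 10.8 and 10 RPKM (log2 fold change 1.22, SE 0.08, edgeR adjusted p = 0.00025). Draxin, a repellent of forebrain commissures, was higher in hippocampus at 42.3 and 39.8 against 97.96 and 94.04 RPKM (log2 fold change 1.15, SE 0.08, edgeR adjusted p = 0.00027), and the netrin receptor Unc5c was higher in cortex (log2 fold change -1.65, SE 0.13, edgeR adjusted p = 0.00038).

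Ephrins and their receptors were likewise divided, 8 of 22 higher in hippocampus and 9 in cortex. The receptor Epha4 lay at 34.3 and 32.6 against 121 and 106 RPKM (log2 fold change 1.69, SE 0.11, edgeR adjusted p = 0.00018). Ephb3 lay at 3.82 and 3.74 against 9.21 and 9.16 RPKM (log2 fold change 1.21, SE 0.08, edgeR adjusted p = 0.00018). The ligand Efnb2 lay at 63.7 and 63.6 against 24.1 and 25.2 RPKM (log2 fold change -1.44, SE 0.06, edgeR adjusted p = 5.6e-05). The receptor Epha3 lay at 19.6 and 20.97 against 11.5 and 11.8 RPKM (log2 fold change -0.87, SE 0.06, edgeR adjusted p = 0.00022). Cadherins and protocadherins leaned to cortex, 16 of 28 higher there and 3 higher in hippocampus. Cdh13, a cadherin without a cytoplasmic domain, lay at 50.2 and 46.1 against 13.8 and 14.6 RPKM (log2 fold change -1.84, SE 0.07, edgeR adjusted p = 5.6e-05). Cdh6 lay at 7.76 and 5.45 against 1.44 and 1.22 RPKM (log2 fold change -2.38, SE 0.21, edgeR adjusted p = 0.00058). Pcdh20 was higher in hippocampus at 3.38 and 3.63 against 15.3 and 13.6 RPKM (log2 fold change 1.97, SE 0.10, edgeR adjusted p = 9e-05). Cdh2 (N-cadherin), the most abundant member, did not pass (log2 fold change -0.14, SE 0.08, adjusted p = 0.2, edgeR).

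Genes of synapses and excitability leaned to cortex. Among 25 glutamate receptor genes 14 were higher in cortex and 4 in hippocampus. Besides Grik4, the AMPA subunit Gria1 was higher in hippocampus at 47.9 and 46.3 against 80.5 and 75.7 RPKM (log2 fold change 0.66, SE 0.08, edgeR adjusted p = 0.0018), while Gria3 was higher in cortex (log2 fold change -0.90, SE 0.10, edgeR adjusted p = 0.0011). The NMDA subunit Grin3a lay at 15.1 and 12.8 against 4.56 and 4.93 RPKM (log2 fold change -1.63, SE 0.10, edgeR adjusted p = 0.00019). The kainate subunit Grik3 lay at 29.3 and 26.5 against 11.5 and 13.2 RPKM (log2 fold change -1.25, SE 0.09, edgeR adjusted p = 0.00028). The metabotropic receptor Grm2 lay at 11.9 and 10.6 against 4.43 and 4.83 RPKM (log2 fold change -1.35, SE 0.10, edgeR adjusted p = 0.00029). Among 19 GABA and glycine receptor genes 12 were higher in cortex and 4 in hippocampus. The alpha subunits divided. Gabra2 lay at 32.95 and 28.6 against 76.2 and 69.5 RPKM (log2 fold change 1.17, SE 0.11, edgeR adjusted p = 0.00062). Gabra4 lay at 5.36 and 5.1 against 10.4 and 10.5 RPKM (log2 fold change 0.93, SE 0.08, edgeR adjusted p = 0.00045). Gabra3 lay at 24.5 and 22.6 against 9.43 and 9.09 RPKM (log2 fold change -1.42, SE 0.08, edgeR adjusted p = 0.00015).

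Potassium channel genes were higher in cortex in 23 of 48 and in hippocampus in 5, and sodium and calcium channel genes were higher in cortex in 16 of 30 and in hippocampus in 4. The inward rectifier Kcnj2 lay at 4.35 and 4.83 against 0.89 and 0.89 RPKM (log2 fold change -2.43, SE 0.09, edgeR adjusted p = 4.6e-05). The sodium channel Scn2a lay at 24.1 and 21.4 against 12.6 and 12.3 RPKM (log2 fold change -0.94, SE 0.09, edgeR adjusted p = 0.00067). The leak channel Kcnk1 was higher in hippocampus at 8.52 and 8.72 against 36.03 and 35.2 RPKM (log2 fold change 1.98, SE 0.07, edgeR adjusted p = 4e-05). Synaptic adhesion genes were higher in cortex in 21 of 37 and in hippocampus in 6. The synaptic organizer Cbln2 lay at 10.7 and 12.02 against 2.91 and 2.96 RPKM (log2 fold change -2.02, SE 0.09, edgeR adjusted p = 6.9e-05). The latrophilin gene Adgrl2 lay at 58.5 and 64.6 against 14.7 and 20.6 RPKM (log2 fold change -1.88, SE 0.14, edgeR adjusted p = 0.00036). Flrt1, a leucine-rich repeat ligand of latrophilins, was higher in hippocampus at 3.33 and 2.33 against 14.2 and 10.5 RPKM (log2 fold change 2.05, SE 0.23, edgeR adjusted p = 0.0013). Vesicle release genes were higher in cortex in 25 of 38 and in hippocampus in 4. Vamp2, an abundant vesicle protein gene, lay at 206 and 200.2 against 154 and 163 RPKM (log2 fold change -0.43, SE 0.07, edgeR adjusted p = 0.0048). The synapsin Syn2 was higher in hippocampus (log2 fold change 0.74, SE 0.12, edgeR adjusted p = 0.0043).

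**Figure D4:**
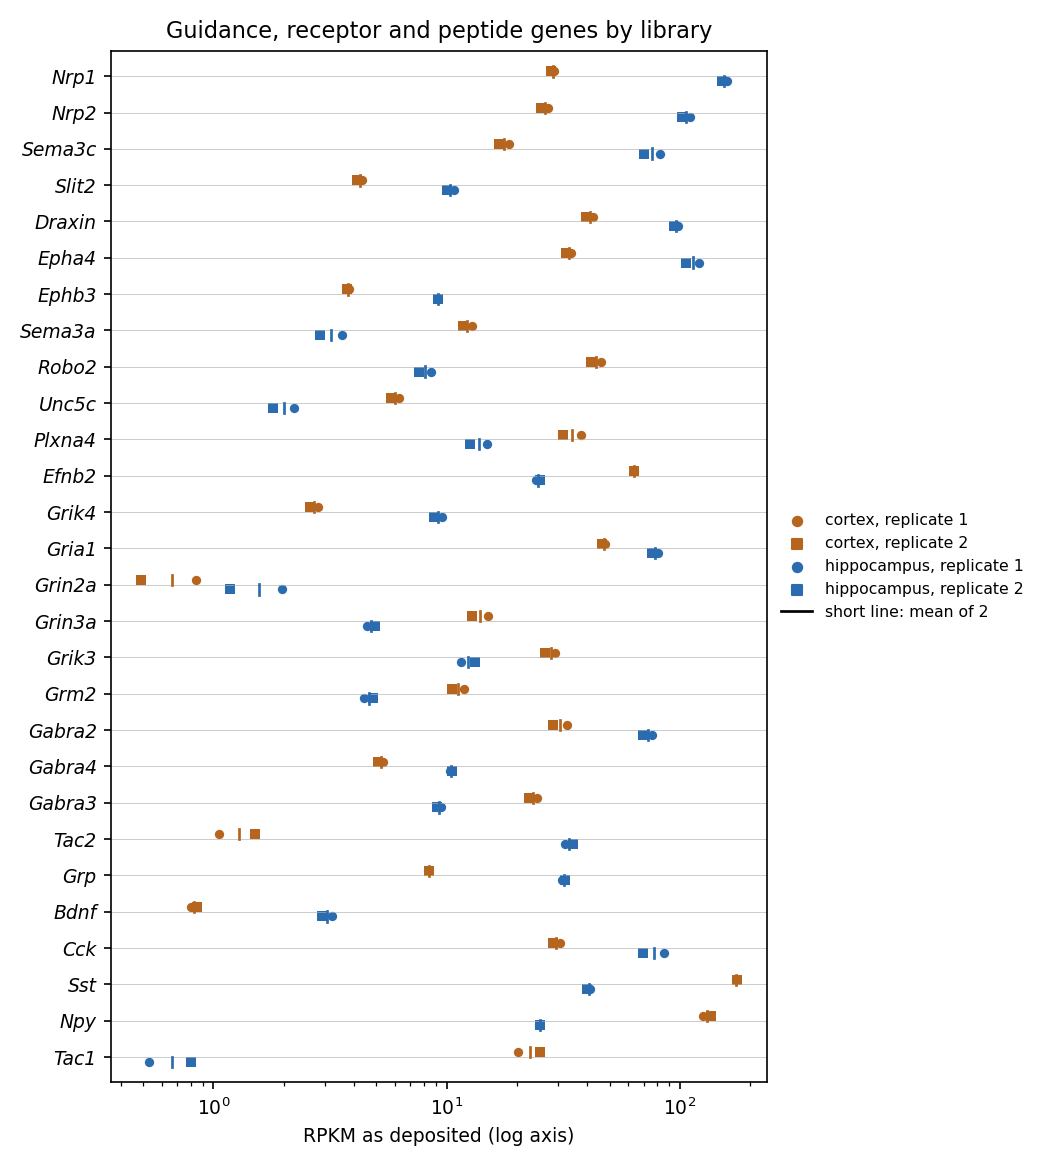
RPKM as deposited (log axis) of guidance, receptor and peptide genes in each control library; circles are replicate 1, squares replicate 2, brown cortex, blue hippocampus, and the short line is the mean of 2. Within each family some genes lie higher in hippocampus (Nrp1, Epha4, Grik4, Gabra2, Tac2) and others higher in cortex (Robo2, Efnb2, Grin3a, Gabra3, Tac1).

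Neuropeptides and secreted neuronal signals included some of the widest contrasts, with 7 of 25 higher in hippocampus and 9 in cortex. The paralogous tachykinins pointed in opposite directions, Tac2 to hippocampus and Tac1 to cortex. Grp, the gastrin-releasing peptide, lay at 8.34 and 8.44 against 31.4 and 32.4 RPKM (log2 fold change 1.85, SE 0.08, edgeR adjusted p = 6.4e-05). The neurotrophin Bdnf lay at 0.8 and 0.85 against 3.22 and 2.92 RPKM (log2 fold change 1.83, SE 0.11, edgeR adjusted p = 0.00018). Penk, the enkephalin precursor, lay at 17.2 and 15.97 against 4.6 and 4.69 RPKM (log2 fold change -1.91, SE 0.09, edgeR adjusted p = 8.8e-05). The granin Scg2 lay at 35.7 and 34.3 against 13.5 and 12.4 RPKM (log2 fold change -1.5, SE 0.08, edgeR adjusted p = 0.00014). Grp and Bdnf were thus higher in hippocampus and Penk and Scg2 higher in cortex. Immediate early genes, which report recent activity or handling, did not move together (4 of 17 higher in hippocampus and 7 in cortex). The orphan nuclear receptor Nr4a3 lay at 17.7 and 16.4 against 70.96 and 64.4 RPKM (log2 fold change 1.92, SE 0.09, edgeR adjusted p = 9e-05). Egr1 lay at 4.4 and 4.12 against 2.59 and 2.66 RPKM (log2 fold change -0.77, SE 0.09, edgeR adjusted p = 0.0018).

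Retinoic acid genes were higher in cortex in 8 of 18 and in hippocampus in 3. The binding protein Crabp1 lay at 28 and 29.8 against 13.2 and 12.4 RPKM (log2 fold change -1.24, SE 0.09, edgeR adjusted p = 0.0003). The receptors Rxrg and Rarb are those given with the striatal genes. The synthesizing enzyme Aldh1a2, known from meninges, was higher in hippocampus at 0.03 and 0.03 against 0.83 and 0.53 RPKM (log2 fold change 4.46, SE 0.40, edgeR adjusted p = 0.00059).

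Splicing regulators leaned to cortex by small amounts. Of 25 genes 13 were higher in cortex (52%, against 17.1% of all tested genes) and 3 in hippocampus, all within 2-fold. Ptbp1, the repressor of neuronal exons made by progenitors and glia, lay at 25.98 and 29.2 against 44.8 and 48.5 RPKM (log2 fold change 0.69, SE 0.07, edgeR adjusted p = 0.00085). The neuronal regulator Rbfox1 was higher in cortex at 51.8 and 53.3 against 37.3 and 37.7 RPKM (log2 fold change -0.56, SE 0.06, edgeR adjusted p = 0.00095). Elavl4, a neuronal RNA-binding protein, lay at 38.5 and 41.5 against 29.3 and 30.7 RPKM (log2 fold change -0.49, SE 0.06, edgeR adjusted p = 0.0016). Ribosomal protein genes differed little between the regions: 36 of 37 did not pass, and the log2 fold changes of the 37 ran from -0.25 to 0.16. These values are relative to the scaling of the libraries, under which the median of all tested genes was 0.01, and are no separate reference. The exception was Rplp1, which did not pass without cortex replicate 2, hippocampus replicate 1 or hippocampus replicate 2 (log2 fold changes -0.21, -0.26 and -0.25, edgeR).

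**Figure D5:**
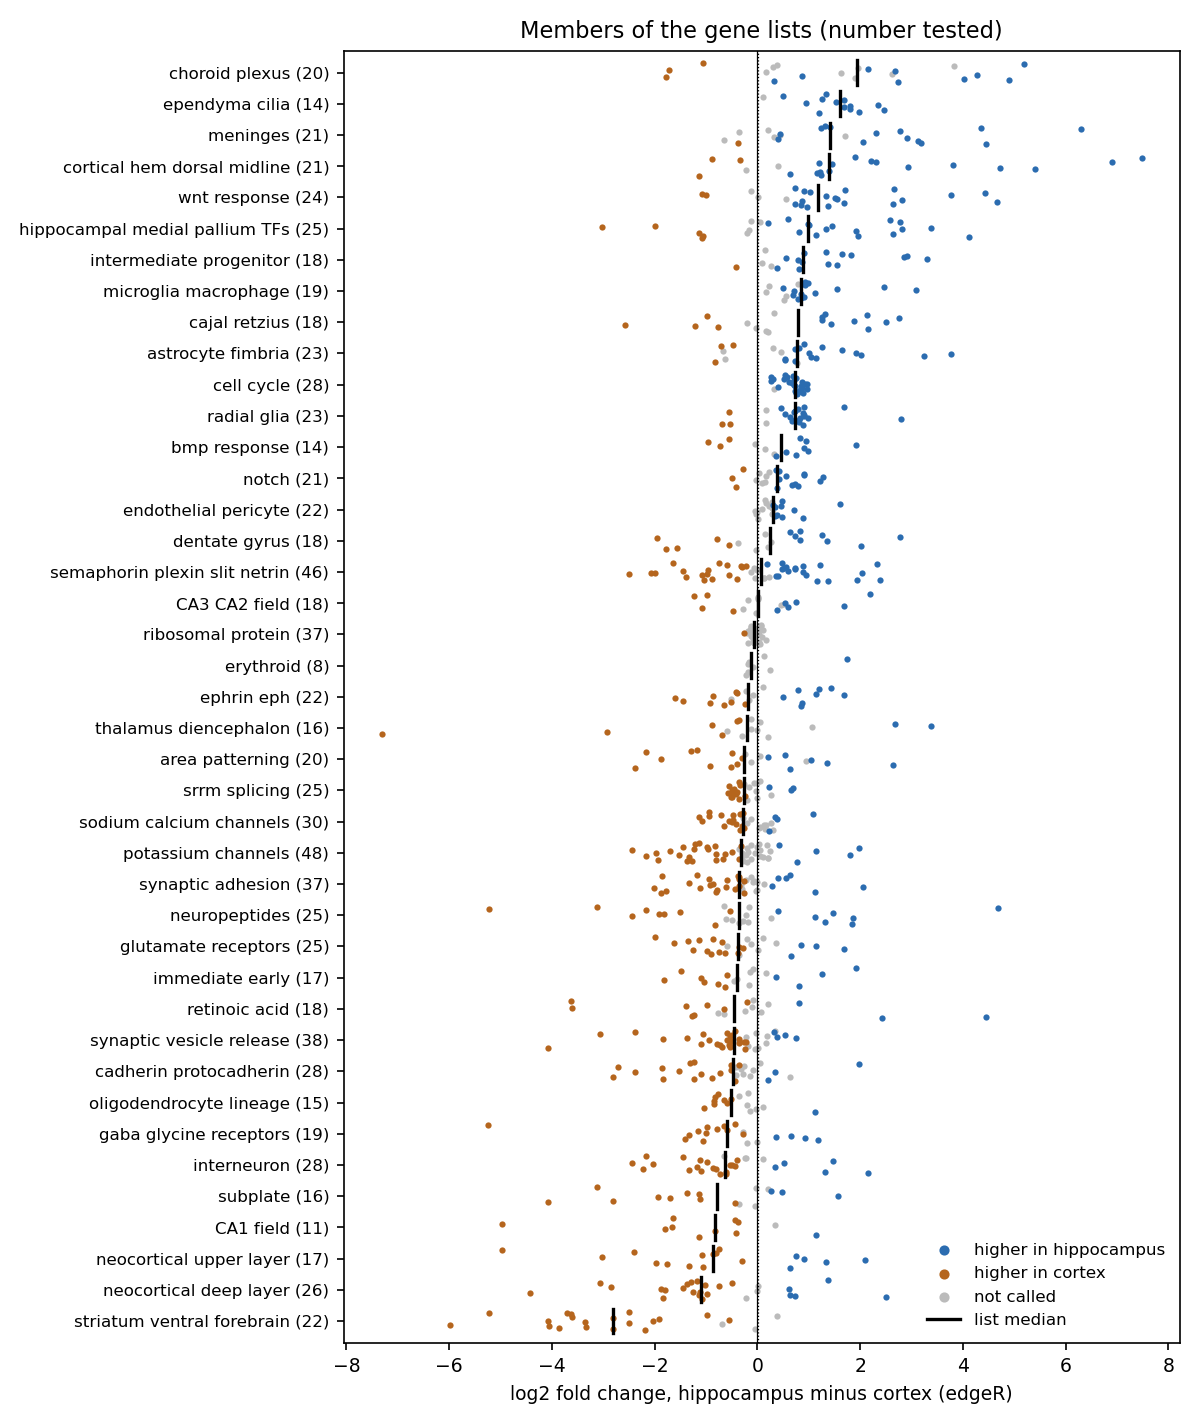
Log2 fold change of hippocampus minus cortex (horizontal axis, edgeR) for every tested member of the gene lists, except the list of Y-linked genes, which is not drawn. Lists are ordered by list median (black bar), with the number tested in brackets. Blue passed higher in hippocampus, brown passed higher in cortex, grey did not pass, and the dotted line is the median of all tested genes. Hem, Wnt, progenitor, astrocyte, ependymal and microglial lists lie to the right, and layer, interneuron, synaptic and striatal lists to the left.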

How the data were processed

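Per the labels' protocols, the RNA came from a Tri Reagent purification and was sequenced from TruSeq libraries. The authors deposited 1 table per library with a read count and a corrected RPKM value per gene. Bowtie and mm9 are named in the submitters' processing notes, without roles. Annotation, counting rule and use of strand were not given in the sources used here, so reads of overlapping or antisense genes cannot be told apart. Blank counts were read as 0 and the deposited RPKM entries "ne" as missing. The tables hold 22667 Ensembl IDs, of which 20759 took a symbol from the reference gene-name table and 1908 kept their ID. Counts of 4 control libraries were tested with edgeR 4.0.16 in R 4.3.3 (TMM, quasi-likelihood, genes kept by filterByExpr with a minimum count of 10 and a minimum total of 15, Benjamini-Hochberg adjustment over all tested genes, threshold 0.05). SE is the log2 fold change divided by the square root of F. RPKM served to show levels, to rank and limit the named genes, to find genes nearly absent from a region, as the filter of 1 alternative and as limma's input. TMM factors ran from 0.963 to 1.05. Scripts were tested on simulated data.

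Named were Srrm4, the 15 largest log2 fold changes and 10 largest RPKM differences in each direction among passing genes of at least 1 RPKM in a region, and from each of 42 gene lists (879 symbols, 870 in the tables) up to 5 passing genes per direction and the 3 most abundant, with any member of the main regional and choroid plexus lists. Some genes that the rule names are not reported here. The comparison, its members and the lists were chosen with earlier results of these data known. Alternatives were 2 other scalings, DESeq2 1.42.0, limma 3.58.1 on log2(RPKM + 1) and log2(RPKM + 0.1), 2 other filters, a fit of all 8 libraries, a replicate block and leaving out each library. Promoter windows are from RefSeq (GRCm38.p6) and serve only for sequence, since the files' build differs. Figures were drawn with matplotlib 3.10.9.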

Additional observations from a re-analysis of the deposited data

How the results depend on the processing

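The number of passing genes was 5993 with RLE size factors, 6024 with upper-quartile scaling, 5675 in DESeq2, 5690 in limma on log2(RPKM + 1), 5723 in limma on log2(RPKM + 0.1), 6188 without a filter and 5464 in a fit that also held the knockout libraries, and none of the passing genes of the analysis as reported had the opposite sign under any of the 13 alternatives. Genes differing at least 2-fold fell to 670 in limma on log2(RPKM + 1), where the pseudocount shrinks low genes. They fell to 1153 among the 12886 tested genes of at least 1 RPKM in 2 libraries. Passing genes at least 2-fold higher in hippocampus had a median RPKM over both regions of 1.09, and those higher in cortex of 1.665. The median of all tested genes was 8.61 RPKM. Same-numbered libraries of the regions deviated together (Pearson correlation of their deviations from the group means 0.709 across 12624 genes, which are not independent replicates), and were alike in the Y-linked sums given above, but no label ties a number to an animal or batch, and with 2 pairs no pairing was taken as given. With the replicate number as a block, 10126 genes passed, 5294 higher in hippocampus and 4832 higher in cortex, 5985 of the 5985 among them. Of the named genes without a call, Fabp7, Cdh2, Hbb-bs, Clic6 and Lars2 passed with this block (largest adjusted p = 0.002, edgeR). Clic6 also passed in edgeR without a filter (adjusted p = 0.016) and in the edgeR fit that held the knockout libraries (adjusted p = 0.027). Leaving out 1 library left a lone library in its region, assumed to vary like the other region, and gave 4426 to 5727 passing genes, 2484 to 3184 higher in hippocampus and 1942 to 2543 higher in cortex, with 1739 to 1988 of at least 2-fold. Of the 207 passing genes named in the text 194 passed under all alternatives that tested them. The other calls were lost where the text says, and also for Bmp4 in DESeq2 (log2 fold change 1.25) and, on the log2(RPKM + 1) and log2(RPKM + 0.1) scales of limma, for Ttr, Aqp1, Wnt7a, Dll3, Rplp1 and, on the latter scale alone, Col8a1, and on the former alone, Tmsb10, which was also lost among genes of at least 1 RPKM in 2 libraries (adjusted p = 0.051). Nr2f1 did not pass with RLE size factors, in DESeq2, without a filter or in the fit that held the knockout libraries (adjusted p = 0.059, 0.061, 0.054 and 0.21). The log2 fold change of Srrm4 ran from -0.0023 without cortex replicate 2 to 0.11 without cortex replicate 1, and that of Lars2 from -1.05 without hippocampus replicate 1 to 3.49 without cortex replicate 1; the cause was not tested. Depth limits the lowest genes: a count of 3 equals 0.0226 to 0.044 CPM in these libraries.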

Other observations

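The genes Frzb, Wif1, Rnf43 and Gjb6 were chosen after their values were seen. Frzb, a soluble Wnt binder, lay at 0.69 and 0.62 RPKM in cortex and 4.66 and 4.07 RPKM in hippocampus (log2 fold change 2.65, SE 0.14, edgeR adjusted p = 0.00012), Wif1, another Wnt binder, at 0.2 and 0.16 against 1.38 and 1.11 RPKM (log2 fold change 2.66, SE 0.22, edgeR adjusted p = 0.00049), and Rnf43, the ubiquitin ligase that removes Wnt receptors, at 0.17 and 0.09 against 1.87 and 1.99 RPKM (log2 fold change 3.77, SE 0.26, edgeR adjusted p = 0.00025; log2 fold change 4.44 without cortex replicate 1). Within the subplate list the complexin Cplx3 lay at 0.21 and 0.16 against 0.01 and 0.01 RPKM (log2 fold change -4.08, SE 0.38, edgeR adjusted p = 0.00071). The proneural factor Neurod4 lay at 0.42 and 0.57 against 3.94 and 3.73 RPKM (log2 fold change 2.92, SE 0.16, edgeR adjusted p = 0.00013), and Gjb6 (connexin 30), a gap junction gene of astrocytes, at 0.02 and 0 against 0.2 and 0.15 RPKM (log2 fold change 3.76, SE 0.62, edgeR adjusted p = 0.0055; log2 fold change 3.15 without cortex replicate 2, whereas without cortex replicate 1 the remaining cortex library is at 0). Kcnf1, a modulatory potassium channel subunit, lay at 7.62 and 6.6 against 1.68 and 1.64 RPKM (log2 fold change -2.17, SE 0.11, edgeR adjusted p = 9.8e-05).

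Lars2, the mitochondrial leucyl-tRNA synthetase, was also chosen after its values were seen. It lay at 286 and 61.9 RPKM in cortex and 1327 and 90.9 RPKM in hippocampus, so that replicate 1 was far above replicate 2 in both regions, and it did not pass (log2 fold change 1.97, SE 1.23, adjusted p = 0.26, edgeR).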
